A study of Mus musculus with 9 samples.

Results

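The genes described here are those whose RNA level moved the same way from EpiLC to both later states of the culture, in either medium. Epiblast-like cells (EpiLCs) were obtained from naive mouse embryonic stem cells by 48 h in N2B27 with 1% KSR, FGF2 and Activin A, and stand for the early post-implantation epiblast. From there, aEpiLCs were kept for a further 24 h in basal N2B27, and pEpiLCs for a further 24 h with Activin A and CHIR99021, a GSK3 inhibitor that switches on Wnt signalling. The labels name KSR for EpiLC, while the methods of the study give 1% KSR in both later media as well. Bulk RNA-seq was available for 3 libraries of each state. Neither later medium held FGF2, so that withdrawal of FGF2 and 24 h more of culture were common to all 6 later libraries and cannot be told apart in these data. The cell line of these libraries is not named in their labels, and nothing says that replicates were separate cultures, so that p-values measure the spread between these samples, which may be technical.

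The 6 later libraries were taken as a single group against the 3 EpiLC libraries. A gene was counted where the lowest of the 6 later values lay above the highest EpiLC value, or the highest later value below the lowest EpiLC value, in CPM, the counts of a gene as a share of its library's total, with totals scaled by the TMM method. Of 15797 genes with enough reads to be tested, 5712 (36.2%) met this rule. All 6 later libraries lay above EpiLC for 2739 genes, 17.3% of those tested, and below EpiLC for 2973 genes, 18.8%. A further 134 and 376 symbols met it among those with too few reads for a test. Levels, fold changes and p-values of these genes on the later-minus-EpiLC contrast used the same libraries as the rule and are given as a description.

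Naive pluripotency gives way in EpiLCs to a formative state, in which cells become able to respond to signals for germ layers. Fibroblast growth factors act through receptor tyrosine kinases and the ERK kinases to drive this exit. At the same stage the de novo DNA methyltransferases act on CpG-rich promoters of germline genes, and zinc finger proteins of the KRAB family silence retroelements together with TRIM28.

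Total counts per library ran from 20560564 to 23417917, and 3 counts, taken as the detection limit, equalled 0.130 to 0.143 CPM. Library pEpiLC 1 stood apart from the other pEpiLC libraries. It differed over 4-fold from them in 331 and 335 genes, against 55 to 77 genes for every other pair of replicates. Epiblast markers were present in all 9 libraries, with 8 of 8 tested and a summed level of 5648 to 5879 CPM in EpiLC, 5536 to 5776 CPM in aEpiLC and 2648 to 4271 CPM in pEpiLC. Transcripts of the mitochondrial genome took 1.55 to 1.71% of counts in EpiLC and 2.17 to 2.45% in the later libraries, and the part of this shift in the results was not tested.

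With edgeR's quasi-likelihood test and Benjamini-Hochberg adjustment over all genes, 925 genes were called higher in the later libraries and 756 lower, at an adjusted p under 0.05 and a change of at least 1 on the log2 scale. These were 5.86% and 4.79% of the genes tested. Both media form 1 group in this fit, so that the difference between them counts as spread in the SE and p-values. Of the genes above EpiLC in all 6 later libraries 847 were called, and of those below 733. Most of the shifts were small. The median log2 fold change was 0.65 for the genes above (quartiles 0.39 and 1.26) and -0.51 for those below (quartiles -1.08 and -0.31), against 0.01 over all tested genes. The nearest later and EpiLC libraries were more than 1.5-fold apart for 549 genes above and 554 below, and more than 2-fold apart for 235 and 296. At the edge of the rule stood Rbm14, an RNA-binding protein gene, with 149.9, 144 and 150.1 CPM in EpiLC and 150.1, 158 and 173 CPM as the lowest, median and highest later value. Yipf2, with 9.47, 8.44 and 8.53 CPM in EpiLC and a lowest later value of 9.468 CPM, fell just outside, since its ranges met. On the lower side H3f3a, a histone H3.3 gene, was just inside with a lowest EpiLC value of 664.991 CPM and a highest later value of 664.988 CPM, and Mrpl45 was just outside with 90.388 and 90.4 CPM.

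The later media could still differ from each other within these genes. Between pEpiLC and aEpiLC, in a fit of their 6 libraries alone, 1108 of 15198 tested genes (7.29%) were called in either direction. Among the genes above EpiLC 155 of 2739 differed between the media, 120 of them higher in pEpiLC and 35 lower, and among the genes below EpiLC 95 of the 2744 tested here, of which 13 were higher in pEpiLC and 82 lower. The difference between these proportions was not tested. The median absolute log2 fold change between the media was 0.20 for the genes above, 0.14 for those below and 0.22 over all tested genes. The counts depended on single aEpiLC libraries: without aEpiLC 2 they were 83 and 37, without aEpiLC 3 they were 103 and 43, and without aEpiLC 1 the lower count was 51.

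**Figure D1:**
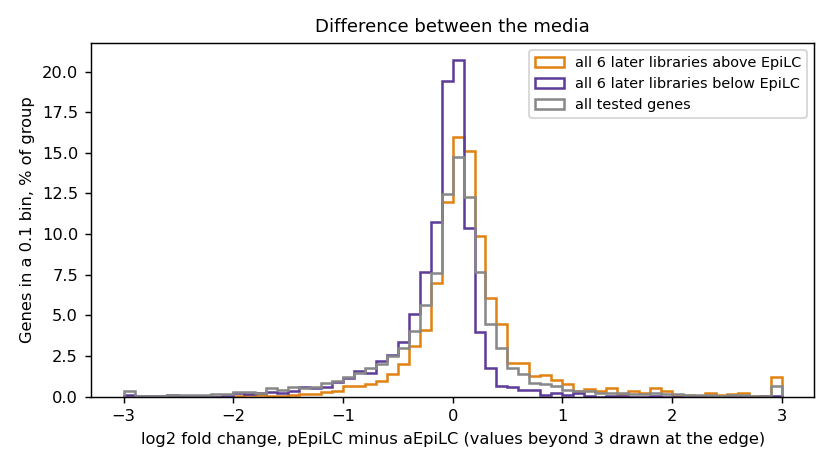
Histogram of the log2 fold change of pEpiLC minus aEpiLC, in bins of 0.1, as a percentage of the genes in each group, for genes above EpiLC in all 6 later libraries, genes below, and all tested genes. All 3 curves peak near 0, and the curve of the genes above EpiLC has its longer tail to the right, where pEpiLC was higher.

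Of the 23 gene lists examined, apart from 5 lists of cell type markers, that of germline genes had the largest share of members called lower. Of its 24 listed genes of the germ line, which act in meiosis, in piRNA defence or in the identity of germ cells, 22 were tested, 17 were called lower and 1 higher, and 18 lay below EpiLC in all 6 later libraries, against 4.79%, 5.86% and 18.8% of all tested genes. The median log2 fold change of the list was -1.96, against 0.01 over all tested genes. Summed over the list, EpiLC libraries held 336, 388 and 333 CPM, aEpiLC libraries 144, 145 and 161 CPM, and pEpiLC libraries 232, 170 and 194 CPM, so that no later library reached the EpiLC range. The pEpiLC sums include Tex15, the member called higher, which is given below. Against the shared EpiLC libraries, the median of the list was -1.65 in aEpiLC and -2.06 in pEpiLC. DNA methylation was not measured in these libraries. Promoters of 8 of these genes, all called lower and picked after the data were seen, are shown because the E-box and the E2F6 motif are known from promoters of this class of gene. Each line gives the 150 bases before the RefSeq start of the gene on GRCm38.p6, 5′ to 3′ on the strand of the gene, with the E-box CACGTG and the core of the E2F6 motif, TCCCGC or its reverse complement GCGGGA, in capitals.
Ddx4, chr13:112652311-112652460, - strand: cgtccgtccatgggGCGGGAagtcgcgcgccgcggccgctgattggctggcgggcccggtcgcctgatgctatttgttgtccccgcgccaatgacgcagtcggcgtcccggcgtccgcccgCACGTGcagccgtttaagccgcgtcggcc
Slc25a31, chr3:40708721-40708870, + strand: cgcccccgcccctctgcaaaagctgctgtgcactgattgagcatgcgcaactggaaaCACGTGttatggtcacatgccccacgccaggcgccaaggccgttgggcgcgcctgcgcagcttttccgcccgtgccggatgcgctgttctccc
Hormad1, chr3:95559527-95559676, + strand: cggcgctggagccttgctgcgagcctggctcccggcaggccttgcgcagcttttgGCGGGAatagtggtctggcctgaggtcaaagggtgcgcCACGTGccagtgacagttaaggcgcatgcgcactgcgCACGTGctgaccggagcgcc
Taf7l, chrX:134476491-134476640, - strand: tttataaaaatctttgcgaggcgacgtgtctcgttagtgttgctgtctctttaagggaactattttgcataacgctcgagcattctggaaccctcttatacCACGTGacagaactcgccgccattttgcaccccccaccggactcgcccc
Mael, chr1:166238745-166238894, - strand: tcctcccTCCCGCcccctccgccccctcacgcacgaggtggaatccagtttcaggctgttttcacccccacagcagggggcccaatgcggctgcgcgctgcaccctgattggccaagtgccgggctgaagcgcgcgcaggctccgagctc
Dazl, chr17:50293621-50293770, - strand: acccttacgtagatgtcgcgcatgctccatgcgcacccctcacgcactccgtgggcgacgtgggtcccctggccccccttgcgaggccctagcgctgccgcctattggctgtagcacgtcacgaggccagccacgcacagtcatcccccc
Stag3, chr5:138280359-138280508, + strand: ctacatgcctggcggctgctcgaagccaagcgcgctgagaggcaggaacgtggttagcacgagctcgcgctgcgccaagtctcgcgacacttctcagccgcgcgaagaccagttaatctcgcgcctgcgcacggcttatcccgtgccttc
Tex101, chr7:24672051-24672200, - strand: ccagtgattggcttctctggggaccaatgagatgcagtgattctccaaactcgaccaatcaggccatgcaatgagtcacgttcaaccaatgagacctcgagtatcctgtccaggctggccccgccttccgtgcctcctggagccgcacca

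In the bases shown, Ddx4 and Hormad1 hold both motifs, Hormad1 with 2 E-boxes, Slc25a31 and Taf7l hold an E-box alone, Mael an E2F6 core alone, and Dazl, Stag3 and Tex101 neither. In 300 bases around the start, 250 upstream, and reading both strands, the E-box was found in 9 of 15 germline genes called lower that matched a promoter (60%), in 10.3% of 11506 tested genes with a promoter and in 12.2% of 516 genes called lower. Over all members of the list with a promoter, called or not, it was found in 12 of 21 (57.1%). The E2F6 core was found in 7 of the 15 germline genes, in 36.3% of tested genes and in 26.7% of the genes called lower. Both motifs stood in 6 of the 15 germline promoters and in 3.98% of those of tested genes. A match describes the letters in this window and not the binding of a factor.

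Dazl, which encodes an RNA-binding protein of germ cells, stood at 8.40, 7.92 and 7.73 CPM in the EpiLC libraries and at 0.781, 1.05 and 1.57 CPM as the lowest, median and highest value of the later libraries. Its log2 fold change was -2.87 (SE 0.22, adjusted p = 3.83e-05). Taf7l, a germ cell paralogue of a TFIID subunit, went from 11.8, 13.8 and 10.7 CPM to 0.695, 1.42 and 1.93 CPM, a log2 fold change of -3.14 (SE 0.29, adjusted p = 0.000103). Neither gene had a later library near its EpiLC values. Stag3, a cohesin subunit of meiosis, was at 51.8, 76.9 and 52.8 CPM in EpiLC and at 9.09, 10.7 and 13.4 CPM later (lowest, median, highest), and Sohlh2, a transcription factor of early germ cells, at 11.5, 13.4 and 11.2 CPM in EpiLC and 1.05, 1.55 and 2.06 CPM later. Their log2 fold changes were -2.48 (SE 0.15, adjusted p = 1.88e-05) and -3.01 (SE 0.21, adjusted p = 2.36e-05). The fall was more than 4-fold in both, and the libraries did not overlap. Hormad1, which acts on unsynapsed meiotic chromosomes, was low throughout, with 3.68, 3.25 and 4.61 CPM in EpiLC and 0.130, 0.252 and 0.286 CPM later, where the later values were within 2-fold of the limit of 3 counts. Ddx4, the germ cell helicase VASA, fell less, from 23.3, 28.8 and 24.3 CPM to 9.87, 11.6 and 15.4 CPM, and its log2 fold change of -1.09 (SE 0.14, adjusted p = 0.000501) lay close to the limit of 1, which it missed without EpiLC 2. Mael and Piwil2, of piRNA defence, fell as well. Mael was at 28.1, 26.6 and 23.6 CPM in EpiLC and 1.29, 4.93 and 7.36 CPM later, with a log2 fold change of -2.44. Piwil2, an Argonaute protein that binds piRNAs, was at 11.2, 11.2 and 9.23 CPM in EpiLC and 1.48, 2.38 and 3.77 CPM later, with a log2 fold change of -2.09.

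A few members of the germline list did otherwise. Tex15 lay above EpiLC in all later libraries, with 11.9, 10.4 and 10.1 CPM in EpiLC, 23.3, 16.8 and 17.1 CPM in aEpiLC and 145, 70.97 and 83.6 CPM in pEpiLC. Its log2 fold change was 2.46 (SE 0.76, adjusted p = 0.0321). Leaving out any EpiLC library, pEpiLC 2 or pEpiLC 3 ended that call, with an adjusted p of up to 0.109. Sycp3, a protein of the synaptonemal complex, overlapped between the groups, with 35.8, 47.6 and 41.97 CPM in EpiLC and 13.4, 28.6 and 44.9 CPM later. Tdrd1 and Brdt overlapped too, and Tdrkh was below EpiLC throughout at a log2 fold change of -0.77, short of 1. Rpl10l, an autosomal copy of an X-linked ribosomal protein gene, had a log2 fold change of -2.14, but reads of such near-identical copies can be split between them by the counting, so that its level is uncertain.

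Of 14 tested genes of DNA methylation and hydroxymethylation, Dnmt3l and Dnmt3a were called lower and none higher, with 4 below EpiLC in all later libraries and 3 above. Over all tested genes the shares were 4.79% called lower, 18.8% below and 17.3% above. Dnmt3l, at chr10:78041947-78063622 (GRCm38), encodes the catalytically inactive cofactor of the de novo enzymes and had 70.01, 69.1 and 79.98 CPM in EpiLC. Later libraries had 6.24, 8.32 and 10.6 CPM in aEpiLC and 4.38, 6.08 and 9.33 CPM in pEpiLC, and the log2 fold change was -3.28 (SE 0.23, adjusted p = 2.36e-05). Taken apart, the media gave -3.12 in aEpiLC and -3.44 in pEpiLC, 2 values that share the EpiLC libraries. Dnmt3l overlaps Aire on the opposite strand. Dnmt3a fell from 501, 547 and 597 CPM to 119, 253 and 352 CPM (lowest, median, highest), a log2 fold change of -1.14 (SE 0.26, adjusted p = 0.00946), and without pEpiLC 1 the log2 fold change of -0.98 no longer reached 1. Tet1, which oxidises methylcytosine, had 325, 255 and 341 CPM in EpiLC and 131, 181 and 229.9 CPM later, below EpiLC in every library but short of the 2-fold limit. Dnmt1, the maintenance enzyme, and its partner Uhrf1 overlapped between the groups. Dnmt3b had 2822, 2523 and 2746 CPM in EpiLC, 2589, 2601 and 2355 CPM in aEpiLC and 744, 1595 and 1393 CPM in pEpiLC, so that its aEpiLC libraries overlapped with EpiLC.

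**Figure D2:**
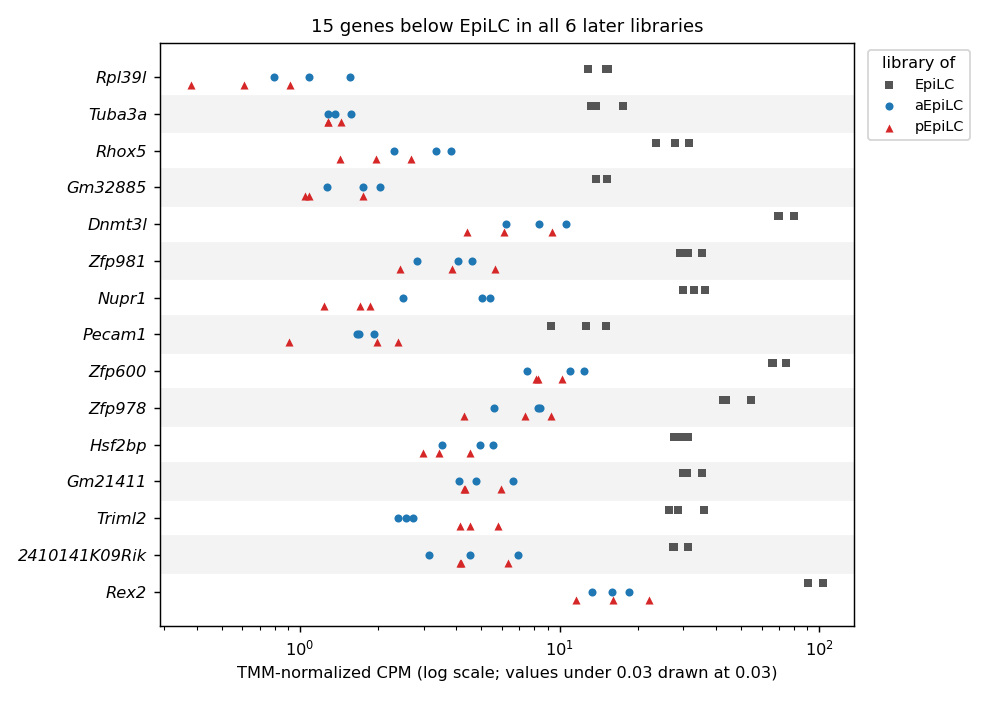
TMM-normalised CPM in each of the 9 libraries, on a log axis, for the 15 called genes with the largest fall, ranked by the smaller of their changes in aEpiLC and pEpiLC. In each row the 3 EpiLC libraries (squares) lie to the right of all aEpiLC (circles) and pEpiLC (triangles) libraries, with Rpl39l, Tuba3a and Rhox5 at the top.

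The plot of the 15 genes with the largest fall common to both media, ranked by the smaller of their 2 log2 fold changes, held several genes outside the lists. Rpl39l, a testis-enriched copy of a ribosomal protein gene, stood at 12.9, 15.4 and 15.1 CPM in EpiLC and 0.381, 0.858 and 1.56 CPM later. Its log2 fold change was -4.01 (SE 0.31, adjusted p = 3.97e-05). Tuba3a, an alpha-tubulin known from testis, was at 17.6, 13.9 and 13.2 CPM and then 1.29, 1.32 and 1.57 CPM, with a log2 fold change of -3.43 (SE 0.14, adjusted p = 3.44e-06). Both have near-identical copies, and Tuba3a overlaps a gene on the opposite strand, so that these levels are uncertain. Rhox5, an X-linked homeobox gene of the reproductive tract and placenta, went from 31.4, 23.6 and 27.9 CPM to 1.43, 2.48 and 3.82 CPM. Hsf2bp, a partner of BRCA2 in meiosis, went from 27.6, 29.6 and 31.1 CPM to 2.99, 4.02 and 5.52 CPM and overlaps Rrp1b on the opposite strand. Their log2 fold changes were -3.42 (SE 0.25, adjusted p = 3.44e-05) and -2.82 (SE 0.18, adjusted p = 1.9e-05), and all later libraries lay far below EpiLC. Gm32885, a long noncoding RNA at chr15:97157029-97167244, fell from 13.8, 15.2 and 15.3 CPM to 1.05, 1.51 and 2.02 CPM. Triml2 was at 26.5, 36.1 and 28.5 CPM in EpiLC, 2.39, 2.56 and 2.71 CPM in aEpiLC and 4.53, 4.13 and 5.79 CPM in pEpiLC. In none of the 15 genes did a single left-out library end the call.

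Of 23 tested genes of naive pluripotency 7 were called lower and 2 higher, with 8 below EpiLC throughout and 1 above, and a median log2 fold change of -0.15. Of all tested genes 4.79% were called lower and 5.86% higher, with 18.8% below EpiLC and 17.3% above. Klf4, Esrrb, Tfcp2l1 and Klf2, transcription factors of the naive circuit, overlapped between the groups. Dppa5a, an RNA-binding protein of early embryos, went from 366, 404 and 387 CPM in EpiLC to 44.5, 46.2 and 52.8 CPM in aEpiLC and 51.1, 78.6 and 79.9 CPM in pEpiLC, with a log2 fold change of -2.71 (SE 0.19, adjusted p = 2.36e-05). Dppa2, a chromatin protein known for its control of germline and early-embryo genes, went from 70.9, 64.7 and 72.9 CPM to 11.4, 17.1 and 21.1 CPM (lowest, median, highest), with a log2 fold change of -2.06 (SE 0.15, adjusted p = 2.76e-05). Pecam1, a cell adhesion molecule of naive cells and endothelium, was at 9.28, 12.6 and 15.1 CPM in EpiLC and 0.906, 1.81 and 2.39 CPM later. These genes were separate between the groups in every library. Nr0b1, a nuclear receptor of naive cells, was at 6.02, 5.14 and 6.81 CPM in EpiLC, 2.21, 1.93 and 1.75 CPM in aEpiLC and 0.429, 0.348 and 0.965 CPM in pEpiLC. Zfp42, known as Rex1, was at 18.7, 19.3 and 19.2 CPM in EpiLC and 6.99, 9.41 and 11.6 CPM later, a log2 fold change of -1.02 (SE 0.17, adjusted p = 0.00211), a fold so close to 2 that leaving out any of 5 libraries (EpiLC 2, EpiLC 3 or an aEpiLC library) took it under the limit. Dppa3 lost its call without EpiLC 2, and without that library the list had 4 genes called lower. Tdh, threonine dehydrogenase, rose, with 17.3, 16.3 and 16.7 CPM in EpiLC and 27.6, 70.6 and 84.4 CPM later, a log2 fold change of 1.96 (SE 0.32, adjusted p = 0.00163). Socs3 was called higher but overlapped, and lost its call in 5 of the 9 fits with a library left out, those without EpiLC 1, EpiLC 2, EpiLC 3, aEpiLC 1 or aEpiLC 2. Fgf4, a further member called lower, is given with the FGF genes.

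Of 25 tested genes of formative and primed pluripotency, Dnmt3a, Dnmt3l and Tcf15 were called lower and none higher, against 4.79% and 5.86% of all tested genes, and the median was -0.12. With 3 states in the model 6 were called lower. Tcf15 lost its call without EpiLC 1 (adjusted p = 0.061). Fgf5, the classical marker of the early post-implantation epiblast, lay above EpiLC throughout, with 90.4, 77.3 and 88.2 CPM in EpiLC, 126, 108 and 110.3 CPM in aEpiLC and 167, 178 and 159 CPM in pEpiLC, a log2 fold change of 0.73 (SE 0.17, adjusted p = 0.0107) that did not reach 1. Pou5f1, which encodes OCT4, lay slightly below, with 1127, 1118 and 1139 CPM in EpiLC and 789, 962 and 1068 CPM later. Etv5, a target of FGF signalling, was lower in all later libraries, with 428, 431 and 432 CPM in EpiLC and 254, 299 and 333 CPM later, a log2 fold change of -0.53 (SE 0.083, adjusted p = 0.00146). Otx2, Sox2 and Pou3f1, transcription factors of the post-implantation epiblast, overlapped between the groups.

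Genes of the Zscan4 family, expressed in rare cultured cells that resemble the 2-cell embryo, fell together. The list for such cells had 5 tested members of 8, all called lower, against 4.79% of all tested genes, with a median of -1.76. Tcstv1 is not listed in the table, and Tcstv3 and Zfp352, with at most 0.326 and 0.132 CPM in EpiLC, were too low to be tested. Summed over the list, EpiLC libraries held 14.4 to 18.7 CPM and later libraries 2.82 to 6.29 CPM. Zscan4f was at 7.37, 5.51 and 5.36 CPM in EpiLC and 0.869, 1.997 and 2.30 CPM later, a log2 fold change of -1.78 (SE 0.27, adjusted p = 0.00122), and Zscan4c at 4.24, 4.38 and 4.83 CPM in EpiLC and 0.739, 1.36 and 2.25 CPM later, a log2 fold change of -1.67 (SE 0.28, adjusted p = 0.00198). In bulk RNA, fewer cells of a type and less RNA per cell cannot be told apart. Near-identical members of this family share reads, so that the value of each is uncertain. Usp17lc lost its call without EpiLC 1 or EpiLC 3.

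Several stretches along chromosomes held many genes that fell. Windows of 12 neighbouring tested genes with at least 7 called in the same direction were sought after the values had been seen. The stretches found were trimmed to begin and end with a called gene, so that their counts and medians follow in large part from the search. Of all tested genes 18.8% lay below EpiLC and 4.79% were called lower. Clustering itself was not tested. Along chr4:145446740-147738426 (GRCm38), 37 genes were tested, 33 lay below EpiLC throughout and 23 were called lower, with a median log2 fold change of -1.35 and none that differed between the media. Zinc finger genes (18 by name) and 11 processed pseudogenes fill this stretch. Zfp981, a member of this array, had 28.96, 31.2 and 35.5 CPM in EpiLC and 2.43, 3.96 and 5.65 CPM later, with a log2 fold change of -3.03 (SE 0.22, adjusted p = 3.31e-05). Zfp600 had 65.9, 66.6 and 74.3 CPM in EpiLC and 7.51, 9.25 and 12.4 CPM later, with a log2 fold change of -2.85 (SE 0.15, adjusted p = 1.23e-05), and Rex2 had 90.3, 90.7 and 103 CPM in EpiLC and 11.6, 16.05 and 22.2 CPM later, with a log2 fold change of -2.54 (SE 0.17, adjusted p = 2.21e-05). No later library came near EpiLC in these genes. Summed over the stretch, EpiLC libraries held 1100, 1121 and 1208 CPM and later libraries from 308 to 533 CPM. On chr13:64736182-66854871, where most symbols are predicted genes, 16 of 20 tested genes were called lower, with a median of -2.17 and no gene that differed between the media. 2410141K09Rik within it went from 27.6, 27.3 and 31.2 CPM to 3.14, 4.34 and 6.94 CPM. The Zscan4 array, chr7:10794242-11614112, had 9 of 9 tested genes called lower, with a median of -1.67. These arrays include close copies, and the division of reads among them is uncertain. A further stretch on chr9:110813994-111489118 had 7 of 11 genes called lower. By class of transcript, 31 of 387 processed pseudogenes (8.01%) and 34 of 283 long intergenic RNAs (12.01%) were called lower, against 4.49% of protein-coding genes.

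Genes of the integrated stress response, which ATF4 switches on when amino acids are short or proteins misfold, lay below EpiLC as a group. Of 24 tested genes 17 were below EpiLC in all later libraries, 8 were called lower and none higher, and the median was -0.88, where 18.8% of all tested genes were below and 4.79% called lower. Nupr1, a small stress-induced chromatin protein, went from 29.8, 36.4 and 32.96 CPM in EpiLC to 2.49, 5.04 and 5.38 CPM in aEpiLC and 1.24, 1.87 and 1.70 CPM in pEpiLC, with a log2 fold change of -3.48 (SE 0.41, adjusted p = 0.000343). Ddit3, which encodes the transcription factor CHOP, went from 19.03, 24.9 and 18.9 CPM to 4.67, 5.89 and 8.41 CPM (lowest, median, highest), with a log2 fold change of -1.74 (SE 0.20, adjusted p = 0.000306). In both genes all later libraries stood apart from EpiLC. Pycr1, an enzyme of proline synthesis, went from 47.3, 54.3 and 47.1 CPM to 7.86, 16.1 and 21.8 CPM, and Shmt2, the mitochondrial serine hydroxymethyltransferase, from 323, 365 and 344 CPM to 119.97, 165 and 191 CPM. The transporter subunits Slc3a2 and Slc7a5 and the serine synthesis genes Phgdh and Psat1 were below EpiLC throughout, with log2 fold changes from -0.88 to -0.76. Atf4 itself overlapped, with 295, 310.4 and 285 CPM in EpiLC and 143, 227 and 303 CPM later. Trib3 was not called without EpiLC 2 nor Slc7a1 without pEpiLC 1, and Cebpb, which overlapped between the groups, lost its call without EpiLC 1, EpiLC 2, aEpiLC 2 or any pEpiLC library.

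Of 22 glycolysis genes 15 lay below EpiLC in all later libraries and none above, with a median of -0.56. For this and the next 4 lists, the shares of all tested genes were 18.8% below EpiLC, 17.3% above, 4.79% called lower and 5.86% called higher. Aldoa, an aldolase, had 1429.8, 1603 and 1733 CPM in EpiLC and 550.4, 679.95 and 845 CPM later, a log2 fold change of -1.18 (SE 0.12, adjusted p = 0.000154), and Pfkp, a phosphofructokinase, 80.6, 94.04 and 105 CPM in EpiLC and 26.5, 40.2 and 56.9 CPM later, a log2 fold change of -1.20 (SE 0.19, adjusted p = 0.00135). No other member was called, but without pEpiLC 1 the glucose transporter gene Slc2a3 was called higher. Pgk1 had 992, 1086 and 1124 CPM in EpiLC and 501, 602 and 769 CPM later, and Ldha 2108, 2233 and 2366 CPM in EpiLC and 1207, 1491 and 1885 CPM later. Genes of the hypoxia response lay below EpiLC in 9 of 20 cases and above in none, with a median of -0.37. Vegfa, Bnip3, Car9 and Mxi1 were called lower. Without EpiLC 2 there were 2 such calls and without EpiLC 3 none, and Vegfa also lost its call without EpiLC 1, aEpiLC 1 or pEpiLC 1. Mxi1, a MAX partner, had 22.3, 24.2 and 27.6 CPM in EpiLC and 9.38, 11.7 and 13.6 CPM later. Of 31 genes of ribosome biogenesis 21 were below EpiLC and none above, but none reached 2-fold, and the median was -0.27. Rrp9, an snoRNP protein, had the largest shift, a log2 fold change of -0.71 (SE 0.054, adjusted p = 3.7e-05), followed by Tcof1, a nucleolar cofactor of rRNA transcription, at -0.69 (SE 0.08, adjusted p = 0.000316). Cell cycle and DNA replication genes lay below EpiLC in 16 of 33 cases, above in 3, with a median of -0.15. Among them only the cyclin gene Ccnd2 was called higher, with 3.68, 4.24 and 4.35 CPM in EpiLC, 6.19, 6.21 and 7.27 CPM in aEpiLC and 34.9, 25.1 and 29.3 CPM in pEpiLC, and this call ended without any EpiLC library, pEpiLC 2 or pEpiLC 3. Cholesterol and fatty acid synthesis had 12 of 33 genes below EpiLC and 2 above, a median of -0.19, and the single called gene Ebp, which was higher and lost its call without any EpiLC or any pEpiLC library.

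**Figure D3:**
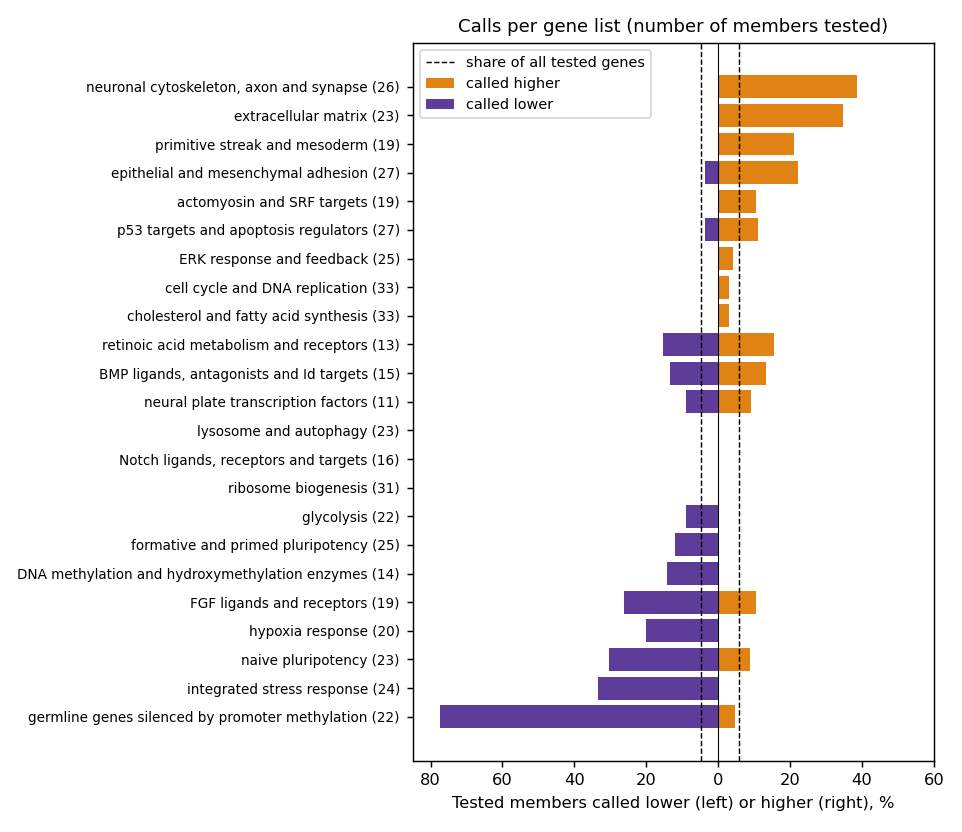
Share of the tested members of each of 23 gene lists that was called lower (left) or higher (right) in the later libraries, with the number tested in brackets and dashed lines at the share of all tested genes, 4.79% lower and 5.86% higher. The germline list reaches farthest to the left, with 17 of 22 members, and the axon and matrix lists farthest to the right, with 10 of 26 and 8 of 23.

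**Figure D4:**
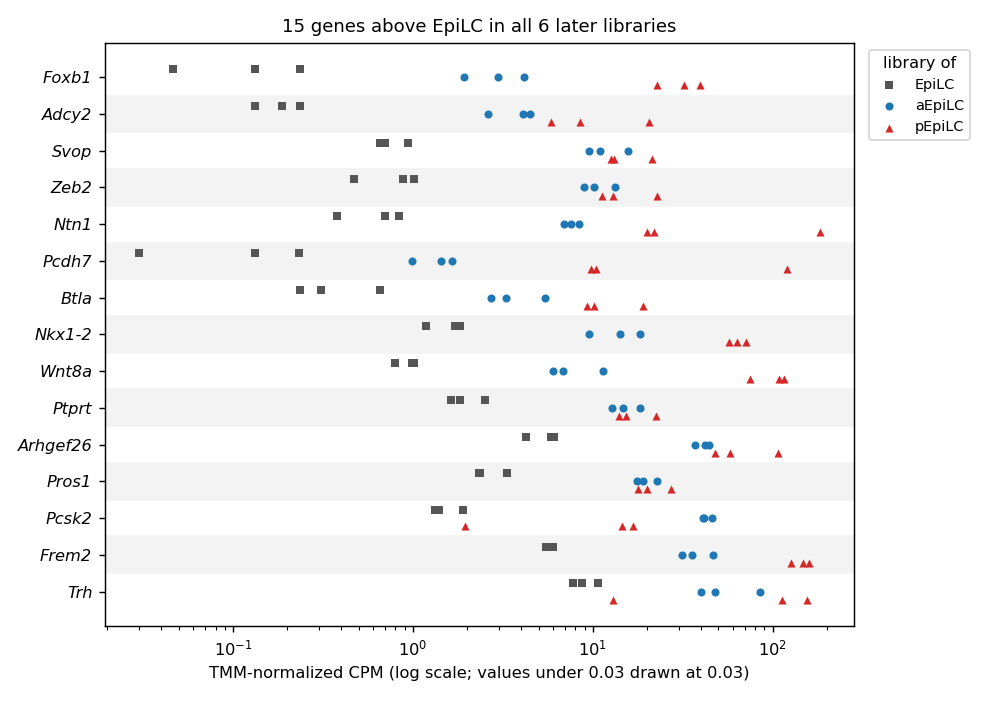
TMM-normalised CPM in each of the 9 libraries, on a log axis, for the 15 called genes with the largest rise, ranked by the smaller of their changes in aEpiLC and pEpiLC. Squares (EpiLC) lie to the left of all circles (aEpiLC) and triangles (pEpiLC), while pEpiLC 1 stands close to EpiLC in Pcsk2 and Trh and far to the right in Ntn1 and Pcdh7.

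The 15 genes with the largest rise common to both media, shown in the plot of rising genes, are described singly. Svop, a transporter-like protein of synaptic vesicles at chr5:114026910-114091570, had 0.700, 0.943 and 0.659 CPM in EpiLC. It had 15.6, 9.54 and 10.99 CPM in aEpiLC and 21.4, 12.7 and 13.1 CPM in pEpiLC, a log2 fold change of 4.17 (SE 0.32, adjusted p = 3.7e-05). Its libraries in the 2 media overlapped with each other and not with EpiLC. Ptprt, a receptor-type tyrosine phosphatase, had 2.52, 1.84 and 1.63 CPM in EpiLC and 12.8, 15.03 and 22.5 CPM later, with a log2 fold change of 3.03 (SE 0.24, adjusted p = 4.27e-05). Pros1, the anticoagulant protein S and a ligand of TAM receptors, had 3.36, 2.36 and 2.33 CPM in EpiLC and 17.5, 19.5 and 27.1 CPM later, with a log2 fold change of 2.95 (SE 0.20, adjusted p = 2.36e-05). In both genes the ranges of the 2 media overlapped with each other. Zeb2, a transcription factor of epithelial-mesenchymal transition and of neural fate, had 0.886, 0.471 and 1.011 CPM in EpiLC, 13.3, 8.95 and 10.2 CPM in aEpiLC and 22.7, 13.04 and 11.3 CPM in pEpiLC, with a log2 fold change of 4.06 (SE 0.39, adjusted p = 0.000118). Arhgef26, an exchange factor for small GTPases, had 6.06, 5.89 and 4.26 CPM in EpiLC and 37.2, 46.1 and 108 CPM later, with a log2 fold change of 3.38 (SE 0.38, adjusted p = 0.000291). Adcy2, an adenylyl cyclase of brain, had 0.187, 0.236 and 0.132 CPM in EpiLC and 2.61, 5.16 and 20.59 CPM later, with a log2 fold change of 5.34 (SE 0.86, adjusted p = 0.00164). Of the 15 genes plotted, Svop, Zeb2, Arhgef26, Adcy2, Foxb1, Nkx1-2, Pcdh7 and Pcsk2 overlap exons of another gene on the opposite strand, and without knowledge of the strand of the reads the 2 genes cannot be told apart.

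Other genes of this group stood higher in pEpiLC than in aEpiLC. Wnt8a, a Wnt ligand of the primitive streak, had 0.793, 0.990 and 1.011 CPM in EpiLC, 11.4, 5.98 and 6.85 CPM in aEpiLC and 75.3, 108 and 116 CPM in pEpiLC. Nkx1-2, a homeobox gene of the caudal epiblast, had 1.73, 1.84 and 1.19 CPM, 18.3, 9.54 and 14.2 CPM and 71.4, 57.3 and 63.01 CPM in the same order. Foxb1, a forkhead gene of the posterior neural plate, had 0.0466, 0.236 and 0.132 CPM in EpiLC, near the limit of 3 counts, 4.13, 1.93 and 2.99 CPM in aEpiLC and 22.7, 32.03 and 39.5 CPM in pEpiLC. Each lay above EpiLC in both media and was higher in pEpiLC, by 3.63 (SE 0.27, adjusted p = 0.00033), 2.19 (SE 0.22, adjusted p = 0.000982) and 3.38 (SE 0.30, adjusted p = 0.000635) on the log2 scale of pEpiLC minus aEpiLC. Frem2, a basement membrane protein, had 5.50, 5.99 and 5.49 CPM in EpiLC, 46.9, 35.9 and 31.5 CPM in aEpiLC and 127, 159 and 148 CPM in pEpiLC, and Btla, an immune receptor, had 0.653, 0.236 and 0.308 CPM in EpiLC, 5.396, 3.28 and 2.71 CPM in aEpiLC and 19.02, 10.2 and 9.33 CPM in pEpiLC. Ntn1, the guidance cue netrin 1, and Pcdh7, a protocadherin, were raised in every later library, but library pEpiLC 1 held 184 and 121 CPM, against 20.1 to 21.9 and 9.74 to 10.4 CPM in the other pEpiLC libraries. Without it the log2 fold change of Ntn1 went from 6.001 to 4.35, and the log2 fold change of Pcdh7 from 7.56 to 5.27, or to 8.36 without EpiLC 1. Both calls ended with DESeq2 in place of edgeR and when any EpiLC library was left out, with an adjusted p of up to 0.0687 and 0.119. Pcsk2, a prohormone convertase, and Trh, a peptide hormone, were the other way round. Pcsk2 had 1.399, 1.32 and 1.89 CPM in EpiLC, 46.2, 41.1 and 41.8 CPM in aEpiLC and 1.95, 16.7 and 14.5 CPM in pEpiLC, so that pEpiLC 1 barely cleared EpiLC, and Trh had 10.6, 8.72 and 7.78 CPM in EpiLC, 85.2, 47.8 and 39.96 CPM in aEpiLC and 13.01, 156 and 112 CPM in pEpiLC.

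Genes of the axon and synapse lay above EpiLC in 10 of 26 tested cases and below in 1, with 10 called higher and none lower. The median was 0.93. Over all tested genes the shares were 17.3% above, 18.8% below, 5.86% called higher and 4.79% called lower. Between the media 15 of the 26 differed, against 7.29% of all genes, and the list's median against the shared EpiLC libraries was 0.94 in aEpiLC and 0.49 in pEpiLC. Summed over the list, EpiLC libraries held 770, 768 and 791 CPM and later libraries from 877 to 1149 CPM. Nefm, a neurofilament, had 7.79, 7.54 and 7.38 CPM in EpiLC, 12.9, 18.4 and 18.7 CPM in aEpiLC and 27.7, 40.98 and 48.9 CPM in pEpiLC, with a log2 fold change of 1.88 (SE 0.42, adjusted p = 0.00803). Dpysl3, a collapsin response mediator, had 16.9, 15.3 and 14.4 CPM in EpiLC and 23.3, 44.9 and 61.4 CPM later, with a log2 fold change of 1.41 (SE 0.31, adjusted p = 0.00756). Map2, which binds dendritic microtubules, was highest in aEpiLC, with 10.3, 12.9 and 9.32 CPM in EpiLC, 45.4, 41.4 and 36.05 CPM in aEpiLC and 16.4, 15.6 and 15.1 CPM in pEpiLC. Dcx, of migrating neurons, had 0.840, 0.660 and 0.835 CPM in EpiLC, 1.69, 1.84 and 1.79 CPM in aEpiLC and 8.67, 11.95 and 9.10 CPM in pEpiLC. Leaving out EpiLC 1, EpiLC 2 or EpiLC 3 left 2, 3 and 3 called members, and Map2 and Dcx were not among them in any of these fits. Of 11 tested transcription factors of the neural plate only Zfp521 was called higher, with a log2 fold change of 2.27 (SE 0.20, adjusted p = 8.18e-05), and En2 lower, -1.26 (SE 0.26, adjusted p = 0.00594).

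Extracellular matrix genes rose in 8 of 23 cases, with 10 above EpiLC throughout, 1 below and a median of 0.83. Among all tested genes 5.86% were called higher, 4.79% called lower, 17.3% lay above EpiLC and 18.8% below. Chains of collagen IV, the network of basement membranes, were among the matrix genes that rose. Col4a1 had 24.7, 22.8 and 19.6 CPM in EpiLC and 47.2, 63.96 and 105 CPM later, with a log2 fold change of 1.60 (SE 0.25, adjusted p = 0.0015), and Col4a2 had 6.81, 7.12 and 5.32 CPM in EpiLC and 19.5, 22.5 and 48.5 CPM later, with a log2 fold change of 2.03 (SE 0.32, adjusted p = 0.00138). Col4a5 and Col4a6, a further pair of chains, had log2 fold changes of 2.40 (SE 0.36, adjusted p = 0.0011) and 2.96 (SE 0.39, adjusted p = 0.000643). All 4 genes were separate between the groups in every library. Col6a1 and Col11a1, of other collagen types, were called higher too, with log2 fold changes of 2.29 (SE 0.50, adjusted p = 0.00732) and 2.06 (SE 0.41, adjusted p = 0.00465). Col4a1 and Col4a2 overlap each other on opposite strands. Vcan, the proteoglycan versican, had 56.7, 46.1 and 58.5 CPM in EpiLC and 87.7, 115 and 201 CPM later. Col1a2 lost its call without any of the EpiLC libraries or without pEpiLC 2 or pEpiLC 3. Summed over the whole list, the later range was 2013 to 4160 CPM and overlapped with 2362 to 2512 CPM in EpiLC, and the abundant Col18a1, which encodes a basement membrane collagen, at 543, 563 and 584 CPM in EpiLC and 144, 369 and 418 CPM later, was the gene below EpiLC. Feeder fibroblast markers, of which Col1a2 is one, had 1 of 5 tested members called higher and 1 (Dcn) lower, with sums of 21.8 to 26.0 CPM in EpiLC and 16.2 to 34.0 CPM later. Lum and Postn are not in the table.

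**Figure D5:**
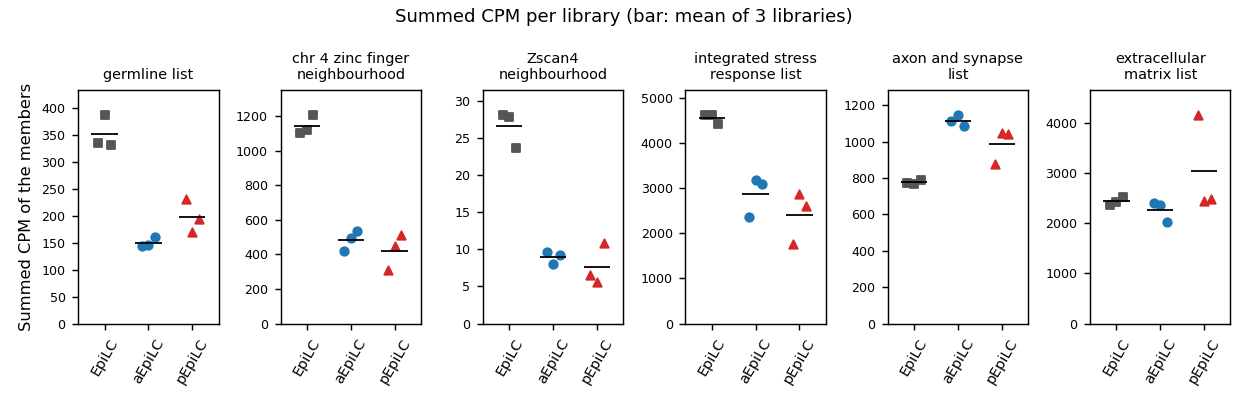
CPM summed over the members of 6 gene groups in each of the 9 libraries (points) with the mean of each state (bars). In the germline list, the chromosome 4 zinc finger and Zscan4 neighbourhoods and the integrated stress response list all 6 later libraries lie below EpiLC, in the axon and synapse list all lie above, and in the extracellular matrix list the states overlap and pEpiLC 1 is highest, at 4160 CPM.

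Of 27 tested genes of epithelial and mesenchymal adhesion 6 were called higher and 1 lower, with 9 above EpiLC and 1 below, against 5.86%, 4.79%, 17.3% and 18.8% of all tested genes in the same order. Krt19, a simple-epithelium keratin, had 2.29, 3.11 and 3.34 CPM in EpiLC and 5.08, 7.12 and 10.3 CPM later, with a log2 fold change of 1.38 (SE 0.25, adjusted p = 0.00314), and Cldn9, a claudin, fell from 2.43, 3.16 and 2.94 CPM to 0.739, 0.942 and 1.38 CPM. Krt8 had 18.7, 21.5 and 24.4 CPM in EpiLC, 91.02, 104 and 106 CPM in aEpiLC and 46.8, 37.2 and 37.00 CPM in pEpiLC, and its call was lost without EpiLC 1 (adjusted p = 0.0501). Vim, an intermediate filament of mesenchyme, was above EpiLC in all libraries without reaching 2-fold. Cdh1 overlapped. Leaving out any of the EpiLC libraries left 3 called higher. Of 27 p53 targets and regulators of apoptosis 9 lay above EpiLC and 4 below, against 17.3% and 18.8% of all tested genes. Perp, a desmosomal p53 target, rose from 5.64, 6.08 and 5.58 CPM to 21.2, 31.3 and 36.9 CPM, with a log2 fold change of 2.37 (SE 0.18, adjusted p = 3.86e-05), at 2.28 in aEpiLC and 2.48 in pEpiLC, while Gdf15, a stress-induced growth factor, fell from 10.8, 10.7 and 9.89 CPM to 0.286, 1.49 and 2.34 CPM, with a log2 fold change of -2.86 (SE 0.41, adjusted p = 0.000878). Bcl2, which blocks apoptosis, was called higher with a log2 fold change of 1.24 (SE 0.26, adjusted p = 0.00623), and Fas, a death receptor, had 0.280, 0.0471 and 0.176 CPM in EpiLC and 0.585, 0.950 and 1.53 CPM later.

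Stretches of rising genes came from the same search for windows of 12 genes with at least 7 called. Their ends were trimmed to called genes, so that their counts follow in large part from the search. Of all tested genes 5.86% were called higher and 17.3% lay above EpiLC. The stretch from Pcdhgb2 to Pcdhga12 lies in the gamma protocadherin array on chromosome 18, a run of alternative first exons of adhesion receptors. It had 8 of 13 tested symbols called higher and 8 above EpiLC in all later libraries, with a median log2 fold change of 1.70 and none that differed between the media. Its summed level was 11.6, 11.1 and 7.03 CPM in EpiLC and 20.4 to 34.6 CPM in the later libraries. These transcripts share their last exons, so that the split of reads between them is uncertain. A stretch of chrX:53608032-53975000 around Rtl8a, Rtl8b and Rtl8c, genes derived from a retrotransposon, had 7 of 9 genes called higher, 6 of which differed between the media, and one of chr6:41605482-43289320 had 7 of 12.

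The FGF and ERK genes were of interest because FGF2 was absent from both later media. Of 25 tested genes of the ERK response and its feedback 1 was called higher and none lower, 3 lay above EpiLC and 3 below, and the median was 0.10. Over all tested genes 5.86% were called higher, 17.3% lay above EpiLC and 18.8% below. The count called higher was 4 without aEpiLC 1, 3 without aEpiLC 3 or pEpiLC 1, and 2 without EpiLC 1, EpiLC 3 or aEpiLC 2. The member called was Egr3, an immediate-early gene, with 0.140, 0.189 and 0 CPM in EpiLC and 0.375, 0.784 and 1.53 CPM later, near the detection limit in EpiLC. Etv5, given with the formative genes, was below EpiLC throughout at an adjusted p under 0.05, without reaching the fold limit. Spry1 was below EpiLC without a call (adjusted p = 0.0711). Spry2, an inhibitor of receptor tyrosine kinase signalling, had 21.7, 16.8 and 17.7 CPM in EpiLC, 33.2, 37.7 and 34.8 CPM in aEpiLC and 31.5, 46.5 and 37.7 CPM in pEpiLC, a log2 fold change of 0.98 (SE 0.14, adjusted p = 0.000835), and Spred1, of a related family, had a log2 fold change of 0.85 (SE 0.21, adjusted p = 0.0138). Dusp6, an ERK phosphatase, had 150.1, 123 and 117 CPM in EpiLC and 112, 147 and 287 CPM later and overlapped, as did Dusp4, Spry4, Egr1 and Etv4. Of 19 tested FGF ligands, receptors and binding proteins 5 were called lower and 2 higher, against 4.79% and 5.86% of all genes. Fgf4, the main FGF of naive and early epiblast cells, had 106, 108 and 88.5 CPM in EpiLC, 28.3, 32.2 and 40.00 CPM in aEpiLC and 1.62, 4.82 and 5.93 CPM in pEpiLC. Its log2 fold change of -2.42 (SE 0.76, adjusted p = 0.0349) lost the call without any of the EpiLC libraries or without pEpiLC 2 or pEpiLC 3. Fgf15 fell from 43.9, 48.6 and 40.3 CPM to 9.25, 14.6 and 21.6 CPM, with a log2 fold change of -1.54 (SE 0.25, adjusted p = 0.00185), and Fgf11, an intracellular member of the family, from 7.18, 8.25 and 9.54 CPM to 2.48, 3.44 and 4.41 CPM. Fgfr1, the chief FGF receptor of the epiblast, lay above EpiLC, with 137, 134 and 139.6 CPM in EpiLC and 169, 196 and 248.5 CPM later, a log2 fold change of 0.54 (SE 0.11, adjusted p = 0.00496). Fgf14 and Fgfbp1, called higher, overlapped between the groups and lost their calls when any EpiLC library was left out. The call of Fgf14 also ended without any aEpiLC library, pEpiLC 2 or pEpiLC 3, and with a replicate block. Without EpiLC 2 or EpiLC 3 there were 3 FGF genes called lower. Fgf16 is not in the table.

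Genes that met the rule could still differ widely between the media. T, the brachyury gene of the primitive streak, had 0.466, 0 and 0.439 CPM in EpiLC, 1.22, 0.855 and 0.598 CPM in aEpiLC and 1087, 204 and 219 CPM in pEpiLC, and Eomes, another T-box gene of the streak, had 3.22, 2.17 and 3.25 CPM in EpiLC, 5.35, 4.54 and 4.69 CPM in aEpiLC and 381, 239 and 216 CPM in pEpiLC. In aEpiLC both sat just above EpiLC and in pEpiLC far above, with log2 fold changes of pEpiLC minus aEpiLC of 9.14 and 5.84. These 2 genes, Gsc, Aplnr, Cyp26a1, Fgf4, Rasgrp2, Wt1, Atcay and Kirrel2 were chosen for their difference between the media, which is given as a description. The calls of T and Eomes in the pooled comparison ended without any of the EpiLC libraries or without pEpiLC 2 or pEpiLC 3. Gsc, of the organiser, had at most 1 count in any EpiLC library and 0.141, 0.0900 and 0.0920 CPM in aEpiLC, against 83.7, 10.5 and 9.51 CPM in pEpiLC, and was at least 123-fold higher over the 6 later libraries, a value that pEpiLC 1 carried. Aplnr, the apelin receptor, was at 0 in EpiLC, at 0.375, 0.180 and 0.276 CPM in aEpiLC and at 84.5, 1.78 and 1.52 CPM in pEpiLC. Cyp26a1, which degrades retinoic acid, was at 0, at 0.657, 0.0900 and 0.230 CPM and at 85.2, 2.96 and 2.07 CPM in the same order. Over all genes tested, 7.29% differed between the media, 5.86% were called higher, 4.79% called lower, 17.3% lay above EpiLC and 18.8% below. Of the 19 tested streak and mesoderm genes 16 differed between the media, 4 were called higher than EpiLC in the pooled fit, 5 lay above EpiLC and none below. Leaving out any EpiLC library, pEpiLC 2 or pEpiLC 3 left 1 called, while DESeq2 called 9 and both the model of 3 states and the fits without an aEpiLC library called 6. Trophoblast markers, which share Eomes with this list, held 1 called higher and 1 (Ascl2) lower of 5 tested, with sums of 11.8 to 12.5 CPM in EpiLC, 9.94 to 13.9 CPM in aEpiLC and 222 to 396 CPM in pEpiLC. In the other direction Rasgrp2, an activator of Rap GTPases, had 77.4, 74.8 and 87.98 CPM in EpiLC, 45.7, 56.02 and 54.6 CPM in aEpiLC and 2.76, 11.2 and 9.56 CPM in pEpiLC. Wt1, a zinc finger transcription factor, had 17.4, 18.3 and 17.8 CPM in EpiLC, 7.601, 9.54 and 5.38 CPM in aEpiLC and 1.38, 0.913 and 1.19 CPM in pEpiLC. In both genes aEpiLC lay between EpiLC and pEpiLC. Atcay had 19.7, 17.7 and 16.00 CPM in EpiLC, 9.76, 11.4 and 11.6 CPM in aEpiLC and 0.191, 2.09 and 3.45 CPM in pEpiLC. Kirrel2, a nephrin-like adhesion protein, fell farther in aEpiLC, to 1.78, 1.57 and 1.56 CPM from 19.8, 26.3 and 27.9 CPM, with 2.62, 9.73 and 9.42 CPM in pEpiLC, and missed the limit without EpiLC 3. The call of Wt1 was lost without any of the EpiLC libraries, aEpiLC 3 or pEpiLC 3.

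Signalling lists held a few further members. For all lists of this paragraph, the shares of all tested genes were 5.86% called higher and 4.79% called lower. Of 15 tested BMP genes Id3, a target of BMP signalling, rose, with 4.99, 5.80 and 5.32 CPM in EpiLC and 13.7, 16.2 and 28.3 CPM later, a log2 fold change of 1.77 (SE 0.25, adjusted p = 0.000951), and Bmp7, a BMP ligand, was called higher with 1.59, 1.27 and 1.011 CPM in EpiLC and 3.87, 12.2 and 60.01 CPM later. Smad7, an inhibitor of TGF-beta signalling, fell from 48.97, 39.4 and 39.2 CPM to 10.8, 6.30 and 4.64 CPM in aEpiLC and 17.5, 23.2 and 22.6 CPM in pEpiLC, and Smad9 was called lower. Leaving out any of the EpiLC libraries ended the calls of Bmp7 and Smad7, and without aEpiLC 2 or aEpiLC 3 there were 4 called higher. Among the retinoic acid genes Rarg, a receptor, fell from 154, 145 and 158 CPM to 35.2, 67.8 and 92.6 CPM, with a log2 fold change of -1.16 (SE 0.23, adjusted p = 0.0047). Rxra was called higher but lost its call when any EpiLC or pEpiLC library was left out, and Stra6 was called lower, a call that ended without EpiLC 2 or EpiLC 3. Among 19 actomyosin and SRF genes Tagln, an actin-binding protein, was called higher with 12.9, 10.98 and 10.8 CPM in EpiLC and 16.2, 64.3 and 132 CPM later, as was Acta1, whose groups overlapped. The count of 2 became 1 without any of the EpiLC libraries, aEpiLC 1 or aEpiLC 2 and 7 without pEpiLC 1. None of 16 Notch genes, 23 lysosome and autophagy genes or 4 extraembryonic endoderm markers was called, the last with sums of 171 to 206 CPM in EpiLC and 113 to 242 CPM later, and with Afp and Ttr not in the table. The part of these marker lists in the results was not tested. Of the called genes given with values outside the plots, Pfkp, Shmt2, Mxi1, Tdh, Nefm, Map2, Krt8, Bcl2, Fgf15, Ccnd2, Eomes and Tagln overlap exons on the opposite strand.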

How the data were processed

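Total RNA of 9 libraries was sequenced by the authors as paired ends of 150 bases. The expected counts deposited by the authors came from RSEM 1.3.1 after mapping by STAR 2.7.9a, on build GRCm38, and were not normalised. Per the values, 19.7 to 21.1% of the entries of a library were not whole. The annotation, the strandedness of the libraries and any trimming are not given in the sources used here. Libraries were assigned to states by their titles. Gene positions and transcript classes were read from GENCODE vM21 and promoters from RefSeq.

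For the present work, entries were rounded and fitted across all 9 libraries with edgeR 4.0.16 (quasi-likelihood test, TMM, filterByExpr) in R 4.3.3, with later states against EpiLC as the only term. A call needed a Benjamini-Hochberg adjusted p under 0.05 and a log2 fold change of at least 1, in either direction. Fits of each medium against EpiLC and of pEpiLC against aEpiLC used their own 6 libraries, and the fits against EpiLC share those 3 libraries. Genes plotted were the 15 called genes per direction that met the rule, had a mean of at least 5 CPM and had the largest change, ranked by the smaller of the changes in both media. Further genes named were the 5 per direction that met the rule and differed most between the media, the members just inside and outside the rule, and members of the lists. The members, gene lists and tests were chosen with earlier results of these data known. Precision was limited by the depth of 20560564 to 23417917 counts, and counting error alone is covered by the limit of 3 counts.

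The fit was tested on simulated counts with known changes. Alternatives were DESeq2 1.42.0, its size factors in edgeR, RLE, other filters, a model of 3 states, a replicate block, and each library left out.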

Additional observations from a re-analysis of the deposited data

Results flagged for a closer look

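In 9 of the 40 genes named by the selection rule, 1 of the 6 later libraries, pEpiLC 1, lay far from the other 5 by Dixon's test. The usual chance rate of about 1 in 20 holds for 6 values of 1 population and does not apply here, since the libraries come from 2 media and T, Gsc, Aplnr and Cyp26a1 were named for their difference between these. Its levels were 1087 CPM for T, 184 CPM for Ntn1, 121 CPM for Pcdh7, 108 CPM for Arhgef26, 85.2 CPM for Cyp26a1, 84.5 CPM for Aplnr, 83.7 CPM for Gsc, 22.7 CPM for Zeb2 and 20.59 CPM for Adcy2.

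In 17 of these genes the later media differed from each other by edgeR's quasi-likelihood test of pEpiLC against aEpiLC. Of these, 9 (T, Eomes, Gsc, Cyp26a1, Fgf4, Rasgrp2, Wt1, Atcay and Kirrel2) had been named because they differed most between the media, so that the count is no evidence of how often the media differ. Higher in pEpiLC were T with a log2 fold change of 9.14, Cyp26a1 with 6.52, Eomes with 5.84, Pcdh7 with 5.12, Wnt8a with 3.63, Foxb1 with 3.38, Ntn1 with 3.30, Nkx1-2 with 2.19, Kirrel2 with 2.14, Frem2 with 1.93 and Btla with 1.76. Gsc had a fitted value of 8.26, which depends on the prior count because aEpiLC libraries held at most 3 counts. Lower in pEpiLC were Fgf4 with -3.02, Rasgrp2 with -2.73, Wt1 with -2.69, Atcay with -2.51 and Nupr1 with -1.42.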

How the results depend on the processing

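The genes called higher in both later states together numbered 2597 at an adjusted p under 0.05 alone, and the genes called lower in both later states together 2553, and with at least 10 counts in every library 637 were called higher and 404 lower, of fewer genes tested. A gap of at least 1.5-fold between the nearest libraries left 549 genes above EpiLC and 554 below. Leaving out each library in turn gave 636 to 994 genes called higher and 541 to 819 lower, of which 495 of 925 and 458 of 756 kept their call in all 9 fits. The counts of genes that differ between the media, an alternative chosen after seeing the data, ran from 83 to 171 for genes above EpiLC and from 37 to 100 for genes below. Scaling by the library total alone gave 3297 genes with all 6 later libraries above EpiLC and 2475 genes with all 6 later libraries below EpiLC, and moved the median of all genes by 0.054 on the log2 scale. With a replicate block, 760 genes were called higher and 678 lower, and with 3 states in the model 1082 and 987. Deviations of same-numbered libraries from their state means had correlations from -0.06 to 0.03 between EpiLC and later libraries. Between aEpiLC and pEpiLC they were 0.170, 0.116 and 0.062, against -0.137 to 0.058 for libraries of different number. The labels link these libraries by number only, and a shared batch was not tested. Over all named genes and alternatives, 6683 fits kept the side of the threshold, 193 lost the call and 105 gained it. None reversed the sign of a gene called in either fit. A change of sign in a gene called in neither fit was counted among the 6683. The cause of these changes was not tested. Depth limits statements on genes near 0.130 to 0.143 CPM.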
